A study of Mus musculus with 18 samples.

Results

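The collagen hydroxylases and lysyl oxidases are the enzymes that modify newly made collagen and cross-link it, and 10 of their genes were followed here in mouse heart. They are the lysyl oxidases Lox, Loxl1, Loxl2 and Loxl3, the lysyl hydroxylases Plod1, Plod2 and Plod3, and the collagen prolyl 4-hydroxylase alpha subunits P4ha1, P4ha2 and P4ha3. They were taken by name from a table of 34714 genes, and all 10 were found. The table holds heart RNA from C57 mice that were knockouts (KO) for Kcp or wild type (WT). Kcp codes for kielin/chordin-like protein, a secreted modulator of BMP and TGF-beta signalling. The animals had undergone transverse aortic constriction (TAC), which narrows the aorta and puts the left ventricle under pressure load, or a sham operation. There were 5 KO TAC libraries, 5 WT TAC libraries, 4 KO sham libraries and 4 WT sham libraries. How the Kcp allele was made, the age and sex of the animals and the time between surgery and collection were not given in the sources used here, and nothing in the labels ties a library to its own animal, so p-values measure the spread between libraries. KO sham replicate 2 was left out of means and tests because its library name joins those of KO sham replicates 3 and 4, which leaves 3 KO sham libraries. The name of KO TAC replicate 4 also joins a pair of names, neither of which belongs to another library here, and it was kept.

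A collagen chain is modified inside the endoplasmic reticulum while it is being folded. Prolyl 4-hydroxylases convert prolines to hydroxyproline, which keeps the triple helix stable at body temperature, and lysyl hydroxylases convert lysines to hydroxylysine, the anchor point for sugars and for the more stable cross-links. Both are iron-dependent enzymes that use 2-oxoglutarate, oxygen and ascorbate. Outside the cell, lysyl oxidases, which carry copper, oxidise lysine and hydroxylysine side chains of collagen and elastin so that neighbouring molecules become covalently joined. In a pressure-loaded heart this chemistry accompanies fibrosis and is linked to stiffening of the wall.

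Levels are FPKM, that is fragments divided by the length of the transcript and by the library's total, so they can be compared between genes. Depth is unknown. Summed FPKM ranged from 390453 to 432264 per library. As a check of the labels, Kcp averaged 0.762 ± 0.197 FPKM in KO TAC hearts and 1.12 ± 0.204 FPKM in WT TAC hearts (SD, n = 5 each), and 0.665 ± 0.00891 FPKM in KO sham hearts (n = 3) against 1.03 ± 0.279 FPKM in WT sham hearts (n = 4). It was lower but present in KO hearts, with exact permutation p = 0.00794 after TAC, the smallest value that design allows, and p = 0.0571 in sham, or 0.0317 and 0.114 after adjustment over 4 comparisons. In limma neither difference was called, with adjusted p = 0.0843 after TAC and 0.301 in sham. In the level of Ndufb4c the libraries fell into 2 sets. One set held all KO libraries and WT TAC replicate 5, and the other held the remaining WT libraries, so in sham hearts genotype and set cannot be told apart. After TAC only WT TAC replicate 5 separates them, so the genotype differences there are largely confounded with the set too. In these bulk samples, fewer cells of a type and less RNA per cell cannot be told apart either.

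In KO TAC hearts Plod1 had the highest level of the 10 genes, 42.7 ± 3.37 FPKM (SD, n = 5). Loxl1 at 26.1 ± 5.49, P4ha2 at 26.0 ± 2.98 and P4ha1 at 24.6 ± 3.70 FPKM came next and overlapped. They stood ahead of Plod3 at 15.9 ± 1.64 and Plod2 at 14.2 ± 2.26 FPKM, which overlapped as well. Loxl2 was at 9.64 ± 1.71, Lox at 6.37 ± 4.02, Loxl3 at 5.79 ± 2.55 and P4ha3 at 0.302 ± 0.248 FPKM, and the first 3 of these overlapped. Plod2 overlapped with both Loxl2 and Lox. The order in WT sham hearts was different below Plod1, which had 35.2 ± 2.31 FPKM (n = 4). P4ha2 followed at 18.8 ± 0.925 FPKM, and then P4ha1 at 11.1 ± 0.877 and Plod3 at 11.1 ± 0.831 FPKM, which overlapped, as did Loxl1 at 7.74 ± 1.07 and Plod2 at 7.47 ± 0.860 FPKM. Loxl2 at 2.18 ± 0.134 and Loxl3 at 1.67 ± 0.542 FPKM also overlapped, Lox was at 0.482 ± 0.0242 FPKM, and P4ha3 was close to 0 at 0.0212 FPKM.

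**Figure D1:**
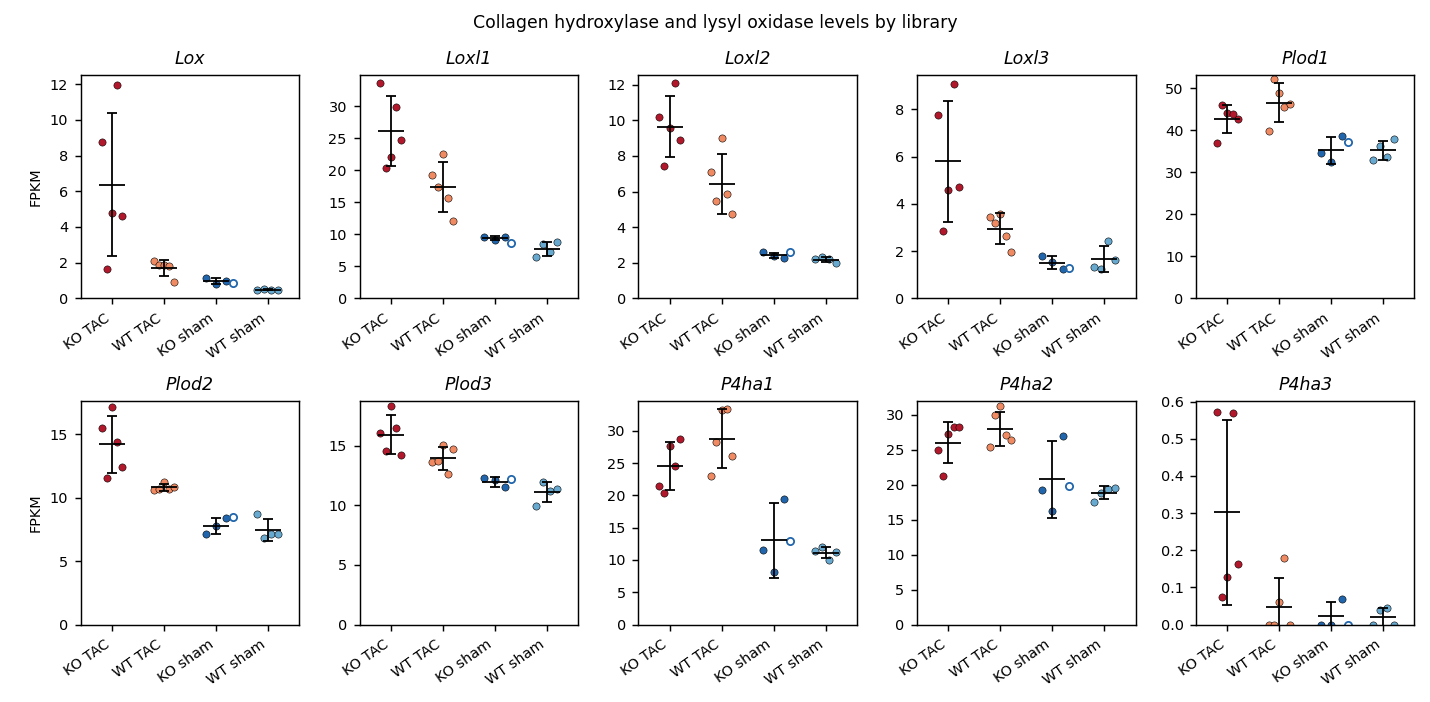
Level of each of the 10 genes in FPKM (vertical axes, each starting at 0) by group, with 1 point per library. Horizontal bars and whiskers are the mean ± SD, and the hollow point in KO sham is replicate 2, which is outside the mean. In KO TAC hearts Lox ran between 1.67 and 12.0 FPKM and Loxl3 between 2.85 and 9.07 FPKM.

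After TAC all 9 of the tested genes rose in KO hearts and 7 of the 9 rose in WT hearts, and none fell. A gene was tested where it had at least 1 FPKM in at least 3 libraries, which P4ha3 did not. Changes are differences of log2(FPKM + 1), which understate the change of low genes, and a gene was called where its Benjamini-Hochberg adjusted p from limma over all 11937 genes tested was under 0.05. In TAC against sham in KO hearts 21.1% of all genes tested rose, 17.7% fell and 38.8% were called in either direction. In WT hearts 10.7% rose, 11.2% fell and 21.9% were called in either direction. The median change of the 9 genes was 0.93 in KO hearts and 0.57 in WT hearts, against 0.01 in KO hearts and -0.01 in WT hearts over all genes tested. In KO hearts the TAC libraries lay wholly above the sham libraries for 7 of the 9 genes, and 19.8% of all genes did so. In WT hearts they did for 8 of the 9, against 10.5% of all genes.

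Between genotypes after TAC, 5 of the 9 genes were higher in KO hearts, namely all 4 lysyl oxidases and Plod2, and none was lower. Of all genes tested 6.53% were higher, 4.78% were lower and 11.3% were called in either direction. Under median-ratio scaling the share of higher genes among the called ones was 46.5%, against 57.7% as tested. The median difference of the 9 genes was 0.35, against 0.02 over all genes. The count was 3 without WT TAC replicate 4 or KO TAC replicate 4 and 2 without KO TAC replicate 1. A fit with the library set as a term compares KO TAC hearts with WT TAC replicate 5 alone, and its calls are not counted here. In sham hearts none of the 9 genes was called between genotypes by limma and none had an unadjusted p under 0.05, while 0.645% of all genes were higher and 0.62% lower, 1.26% in all. For the genotype by TAC interaction, which asks whether the TAC change differed between KO and WT, none was called either, and 0.93% of all genes were. Loxl2, Loxl3 and Plod2 had an unadjusted interaction p under 0.05. The larger counts and medians in KO hearts are therefore not shown to differ from those in WT hearts.

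**Figure D2:**
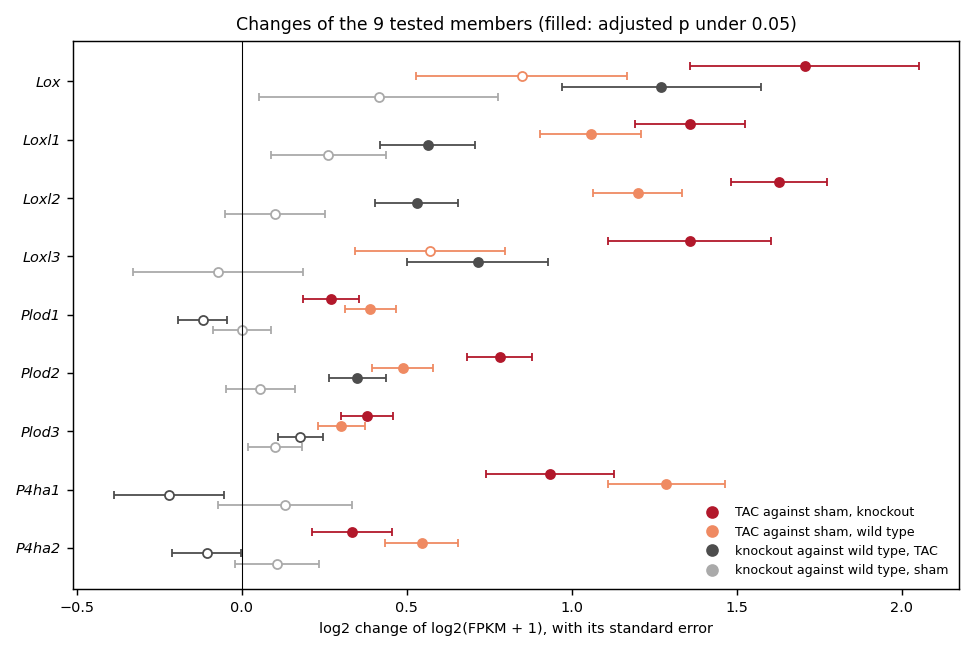
Change of log2(FPKM + 1) with its standard error (horizontal axis) for the 9 tested genes in TAC against sham in KO hearts, TAC against sham in WT hearts, KO against WT after TAC and KO against WT in sham. Filled points have an adjusted p under 0.05 (limma, Benjamini-Hochberg), and the 4 lysyl oxidases and Plod2 are the genes with a filled point between genotypes after TAC.

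Lox (chromosome 18, 52516060 to 52529867 in GRCm38) encodes lysyl oxidase, the founding enzyme of the family, which acts on fibrillar collagen and elastin. It had 8.78, 1.67, 4.80, 12.0 and 4.64 FPKM in KO TAC hearts and 2.09, 1.87, 1.86, 1.80 and 0.897 FPKM in WT TAC hearts. KO sham hearts had 1.14, 0.816 and 0.984 FPKM, and WT sham hearts had 0.494, 0.511, 0.460 and 0.464 FPKM. In each genotype every TAC library was above every sham library, while KO TAC replicate 2 fell within the range of the WT TAC libraries. Lox rose by 1.70 ± 0.35 on the log2 scale in KO hearts (SE, adjusted p = 0.00115, limma). In WT hearts its change was 0.85 ± 0.32, with adjusted p = 0.0694 from limma over all groups and 0.000792 in a fit of the 2 WT groups alone. It was also past the threshold in WT with a pseudocount of 0.1 (adjusted p = 0.00913, limma), and when WT TAC replicate 5, KO TAC replicate 2 or KO TAC replicate 4 was left out. It was so with the library set as a term too (0.0483). In that fit WT TAC replicate 5 does not enter the WT change, so it repeats leaving that library out. Lox was higher in KO than in WT hearts after TAC by 1.27 ± 0.30 (adjusted p = 0.0155, limma). In sham the difference was 0.41 ± 0.36 (adjusted p = 0.665), although all 3 KO sham libraries lay above all 4 WT sham libraries, which also held for Loxl1 and for 7.27% of all genes tested. For Loxl1 it held only because KO sham replicate 2 was left out, at 8.67 FPKM against 8.81 FPKM in WT sham replicate 4. The interaction of Lox was 0.86 ± 0.47 (adjusted p = 0.344, limma), and it passed the threshold without KO TAC replicate 2, at 1.17 with adjusted p = 0.0380.

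Loxl1 (chromosome 9, 58287723 to 58313212) encodes an enzyme needed for elastic fibre upkeep and was the most abundant lysyl oxidase in all 4 groups. It had 33.6, 20.4, 22.1, 29.8 and 24.7 FPKM in KO TAC hearts and 19.3, 17.5, 22.5, 15.7 and 12.1 FPKM in WT TAC hearts. In sham, KO hearts had 9.53, 9.12 and 9.63 FPKM and WT sham hearts had 6.47, 8.41, 7.28 and 8.81 FPKM. TAC and sham libraries did not overlap in either genotype, and after TAC the genotypes overlapped through WT TAC replicate 3. Loxl1 rose by 1.36 ± 0.17 in KO hearts (adjusted p = 1.02e-05, limma) and by 1.06 ± 0.15 in WT hearts (adjusted p = 0.000188, limma). It was higher in KO hearts after TAC by 0.56 ± 0.14 (adjusted p = 0.0211, limma). That call was lost without WT TAC replicate 4, KO TAC replicate 1 or KO TAC replicate 4, where the difference was 0.47 to 0.53 and the adjusted p 0.0522 to 0.0598, and in a fit of the 2 TAC groups alone (adjusted p = 0.0513).

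Loxl2 (chromosome 14, 69608692 to 69695834) encodes an enzyme that cross-links collagen IV of basement membranes as well as fibrillar collagen. It had 10.2, 7.43, 9.56, 12.1 and 8.92 FPKM in KO TAC hearts and 7.11, 5.48, 9.02, 5.86 and 4.73 FPKM in WT TAC hearts. KO sham hearts had 2.58, 2.37 and 2.28 FPKM, and WT sham hearts had 2.20, 2.33, 2.20 and 2.001 FPKM. The sham libraries lay close together in both genotypes and well below all TAC libraries. Loxl2 rose by 1.63 ± 0.15 in KO hearts (adjusted p = 3.49e-07, limma) and by 1.20 ± 0.13 in WT hearts (adjusted p = 1.91e-05, limma). After TAC it was higher in KO hearts by 0.53 ± 0.13 (adjusted p = 0.0138, limma). Its interaction of 0.43 ± 0.20 was not called (adjusted p = 0.251, limma).

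Loxl3 (chromosome 6, 83034205 to 83052566) encodes a lysyl oxidase that is required for normal palate and spine development in mice. It had 7.75, 2.85, 4.58, 9.07 and 4.70 FPKM in KO TAC hearts and 3.45, 3.18, 3.55, 2.63 and 1.94 FPKM in WT TAC hearts. In sham, KO hearts had 1.78, 1.53 and 1.22 FPKM, and WT sham hearts had 1.34, 1.25, 2.44 and 1.63 FPKM. KO TAC replicates 1 and 4 were the highest libraries, as they were for Lox, and WT TAC replicate 5 lay below WT sham replicate 3. Loxl3 rose by 1.36 ± 0.25 in KO hearts (adjusted p = 0.000397, limma). In WT hearts its change was 0.57 ± 0.23 (adjusted p = 0.0833, limma). It passed the threshold in a fit of the 2 WT groups alone (adjusted p = 0.0178), and without WT TAC replicate 5, KO TAC replicate 2 or KO TAC replicate 4. It did so with the library set as a term too (0.0478), a fit that repeats leaving out WT TAC replicate 5 for this change. After TAC Loxl3 was higher in KO hearts by 0.71 ± 0.21 (adjusted p = 0.0418, limma). That call was lost when any of 11 libraries was left out (WT sham replicates 1 and 4, WT TAC replicates 2, 4 and 5, KO sham replicates 1 and 3, and KO TAC replicates 1, 3, 4 and 5), with differences of 0.55 to 0.76 and adjusted p of 0.05001 to 0.112. It was also lost in a fit of the 2 TAC groups alone (adjusted p = 0.0721) and without the filter on low values (0.0758).

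Within the set of libraries that holds WT TAC replicate 5, every KO TAC library lay above that 1 WT TAC library for all 4 lysyl oxidases and Plod2, and for 24.0% of all genes tested. WT TAC replicate 5 was the lowest library of its group for each of the 4 lysyl oxidases, so this sets KO TAC hearts against the lowest WT TAC value there. The lowest KO TAC values were 1.67 FPKM against 0.897 FPKM for Lox, 20.4 against 12.1 FPKM for Loxl1, 7.43 against 4.73 FPKM for Loxl2, 2.85 against 1.94 FPKM for Loxl3 and 11.5 against 10.9 FPKM for Plod2. For Plod1, Plod3, P4ha1 and P4ha2 the lowest KO TAC library lay below WT TAC replicate 5. The lysyl oxidases and Plod2 had been called between genotypes after TAC in a fit that included WT TAC replicate 5. Their order within the set is therefore not separate support for those calls. One WT library allows no test within the set. With the set as a term, the difference after TAC is the KO TAC mean minus WT TAC replicate 5 alone, so no p-value is given. It was 1.76 for Lox, 1.03 for Loxl1, 0.88 for Loxl2, 1.12 for Loxl3 and 0.34 for Plod2.

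Plod1 (chromosome 4, 147909753 to 147936776) encodes lysyl hydroxylase 1, which acts on lysines of the triple helix. It had 37.1, 46.0, 44.0, 43.8 and 42.7 FPKM in KO TAC hearts and 39.8, 52.3, 48.9, 45.5 and 46.2 FPKM in WT TAC hearts. KO sham hearts had 34.7, 32.3 and 38.7 FPKM and WT sham hearts had 33.0, 36.3, 33.6 and 37.9 FPKM. The genotypes overlapped throughout, and in KO hearts TAC replicate 1 lay below sham replicate 4. Plod1 rose by 0.27 ± 0.08 in KO hearts (adjusted p = 0.0167, limma) and by 0.39 ± 0.08 in WT hearts (adjusted p = 0.00177, limma). The KO call was lost without KO sham replicate 1 or 3, at 0.21 to 0.26 with adjusted p = 0.0531 to 0.1001. After TAC its genotype difference was -0.12 ± 0.07 (adjusted p = 0.321, limma).

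Plod2 (chromosome 9, 92539636 to 92608428) encodes lysyl hydroxylase 2, which acts on lysines of the telopeptides, the short ends of the collagen chain, and so sets which kind of cross-link can form. It had 15.5, 11.5, 17.1, 14.4 and 12.5 FPKM in KO TAC hearts and 10.6, 10.7, 11.3, 10.7 and 10.9 FPKM in WT TAC hearts. In sham, KO hearts had 7.14, 7.79 and 8.42 FPKM and WT sham hearts had 8.73, 6.81, 7.15 and 7.17 FPKM. The WT TAC libraries lay within a narrow band, and all KO TAC libraries were above it, which held for 3.83% of all genes tested and for no other of the 9 genes. Plod2 rose by 0.78 ± 0.10 in KO hearts (adjusted p = 1.03e-05, limma) and by 0.49 ± 0.09 in WT hearts (adjusted p = 0.00115, limma). After TAC it was higher in KO hearts by 0.35 ± 0.09 (adjusted p = 0.0162, limma), a call lost without KO TAC replicate 1, at 0.32 with adjusted p = 0.0506. Its interaction of 0.29 ± 0.14 was not called (adjusted p = 0.250, limma).

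Plod3 (chromosome 5, 136987019 to 136996646) encodes a lysyl hydroxylase that also adds glucose and galactose to hydroxylysine. It had 16.0, 14.6, 18.3, 16.5 and 14.2 FPKM in KO TAC hearts and 13.6, 13.7, 15.1, 12.6 and 14.7 FPKM in WT TAC hearts. KO sham hearts had 12.3, 12.1 and 11.5 FPKM, and WT sham hearts had 9.98, 12.0, 11.2 and 11.3 FPKM. TAC and sham libraries did not overlap in either genotype, while the genotypes did after TAC. Plod3 rose by 0.38 ± 0.08 in KO hearts (adjusted p = 0.000862, limma) and by 0.30 ± 0.07 in WT hearts (adjusted p = 0.00590, limma). Its genotype difference after TAC was 0.18 ± 0.07 (adjusted p = 0.0978, limma).

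The promoters of the prolyl hydroxylase alpha subunits are shown because P4ha1 and P4ha2 are known targets of the hypoxia-inducible factors, whose binding motif has ACGTG or GCGTG at its core. The windows run from 250 bases before to 50 bases after the transcript start used in the RefSeq promoter table for GRCm38.p6, on the strand of the gene. For P4ha1 and P4ha3 that start lies downstream of the first base of the gene given with its values. Capitals mark ACGTG or GCGTG on either strand, so that a match on the reverse strand reads CACGT or CACGC. The P4ha1 window is chr10:59323046-59323345, the P4ha2 window chr11:54100674-54100973 and the P4ha3 window chr7:100285270-100285569, all on the plus strand.
P4ha1: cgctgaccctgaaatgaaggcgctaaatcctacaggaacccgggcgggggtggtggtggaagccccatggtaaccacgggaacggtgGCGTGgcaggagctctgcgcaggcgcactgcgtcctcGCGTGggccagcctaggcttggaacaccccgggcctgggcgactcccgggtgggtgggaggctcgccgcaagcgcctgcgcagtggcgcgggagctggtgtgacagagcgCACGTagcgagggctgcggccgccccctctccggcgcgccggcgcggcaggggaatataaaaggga
P4ha2: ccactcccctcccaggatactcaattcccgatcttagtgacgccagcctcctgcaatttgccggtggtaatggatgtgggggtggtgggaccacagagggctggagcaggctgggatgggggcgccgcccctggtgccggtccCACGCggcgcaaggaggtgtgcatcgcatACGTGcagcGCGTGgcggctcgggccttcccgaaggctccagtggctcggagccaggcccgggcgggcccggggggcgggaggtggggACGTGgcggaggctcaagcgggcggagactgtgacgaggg
P4ha3: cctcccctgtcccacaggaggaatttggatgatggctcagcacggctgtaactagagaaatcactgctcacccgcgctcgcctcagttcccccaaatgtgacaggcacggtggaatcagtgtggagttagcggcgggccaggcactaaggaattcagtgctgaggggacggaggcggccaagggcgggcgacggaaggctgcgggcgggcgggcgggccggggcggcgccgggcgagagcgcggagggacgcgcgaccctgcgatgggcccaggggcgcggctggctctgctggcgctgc

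P4ha1 held 1 ACGTG and 2 GCGTG matches, P4ha2 held 2 of each, and P4ha3 held none. Of 32544 promoter windows of the same length in the RefSeq table, 19.7% held ACGTG, 32.6% held GCGTG and 44.0% held either, so a match is common. RefSeq windows were at hand for 5 of the 10 genes, and the other pair, Plod1 and Plod3, held 2 and 3 GCGTG and 0 and 1 ACGTG matches. TGANTCA, the core bound by AP-1, and GGAATG, the core bound by TEAD factors, searched on both strands, were in none of the 5 windows, against 7.79% and 14.6% of all windows.

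P4ha1 (chromosome 10, 59323197 to 59373304) encodes the main catalytic alpha subunit in most tissues, which works as a tetramer with the beta subunit P4hb. It had 21.5, 20.3, 27.7, 24.5 and 28.8 FPKM in KO TAC hearts and 23.0, 28.2, 33.3, 33.3 and 26.2 FPKM in WT TAC hearts. In sham, KO hearts had 11.6, 8.11 and 19.4 FPKM and WT sham hearts had 11.4, 12.0, 9.93 and 11.2 FPKM. All TAC libraries lay above all sham libraries, with KO sham replicate 4 just under the lowest of them, and the genotypes overlapped under both surgeries. P4ha1 rose by 0.93 ± 0.19 in KO hearts (adjusted p = 0.00119, limma) and by 1.29 ± 0.18 in WT hearts (adjusted p = 0.000140, limma). Its genotype difference after TAC was -0.22 ± 0.17 (adjusted p = 0.440, limma).

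P4ha2 (chromosome 11, 54100924 to 54131668) encodes the alpha subunit best known from cartilage and bone. It had 25.0, 21.3, 27.2, 28.3 and 28.3 FPKM in KO TAC hearts and 25.4, 29.9, 31.2, 27.1 and 26.4 FPKM in WT TAC hearts. KO sham hearts had 19.2, 16.2 and 26.9 FPKM, and WT sham hearts had 17.5, 18.8, 19.4 and 19.6 FPKM. In KO hearts the groups overlapped, because KO sham replicate 4 lay above KO TAC replicates 1 and 2, and in WT hearts they did not overlap. P4ha2 rose by 0.33 ± 0.12 in KO hearts (adjusted p = 0.0373, limma) and by 0.54 ± 0.11 in WT hearts (adjusted p = 0.00220, limma). The KO call was lost without KO sham replicate 1 or 3 or KO TAC replicate 3, 4 or 5, at 0.18 to 0.32 with adjusted p = 0.0683 to 0.277. Without KO sham replicate 4 the KO change was 0.53 (adjusted p = 0.000859, limma). The KO call was also lost in a fit of the 2 KO groups alone (adjusted p = 0.113), with median-ratio scaling (0.0683) and without the filter on low values (0.0738). Its genotype difference after TAC was -0.11 ± 0.10 (adjusted p = 0.568, limma).

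P4ha3 (chromosome 7, 100285489 to 100319701) encodes the third alpha subunit, which is scarce in most tissues. It had 0.572, 0.0741, 0.129, 0.570 and 0.164 FPKM in KO TAC hearts. In WT TAC hearts it had 0.0619 and 0.178 FPKM in replicates 3 and 4 and was listed at 0 in the others. It was listed at 0 in 2 of 3 KO sham libraries, with 0.0679 FPKM in replicate 4, and in WT sham hearts it had 0.0387 and 0.0460 FPKM in replicates 2 and 3 and was listed at 0 in replicates 1 and 4. The highest values were again those of KO TAC replicates 1 and 4. In 2-sided exact permutation tests of log2(FPKM + 1), KO against WT after TAC gave p = 0.0476 and TAC against sham in KO hearts p = 0.0893, each 0.179 after adjustment over the 4 comparisons run. The smallest p these designs allow is 0.00794 and 0.0179. The first was above 0.05 in the same exact permutation test without KO TAC replicate 1 or 4 or WT TAC replicate 1, 2, 3 or 5, at p = 0.0635 to 0.119.

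Summed within each family, the 4 lysyl oxidases reached 47.9 ± 13.2 FPKM in KO TAC hearts and 28.5 ± 6.49 FPKM in WT TAC hearts, against 14.3 ± 0.625 FPKM in KO sham hearts and 12.1 ± 1.07 FPKM in WT sham hearts (SD). The lysyl hydroxylases summed to 72.8 ± 4.40 FPKM in KO TAC hearts and 71.3 ± 5.12 FPKM in WT TAC hearts, against 55.0 ± 3.25 FPKM in KO sham hearts and 53.8 ± 2.35 FPKM in WT sham hearts. The alpha subunits summed to 50.9 ± 6.39 FPKM in KO TAC hearts and 56.8 ± 6.39 FPKM in WT TAC hearts, against 33.8 ± 11.3 FPKM in KO sham hearts and 30.0 ± 0.973 FPKM in WT sham hearts. After TAC the lysyl oxidase sum was the only one of the 3 whose mean was higher in KO than in WT hearts by more than the larger SD. The ratio of the lysyl oxidase sum to the alpha subunit sum was 0.747 to 1.28 in KO TAC libraries and 0.375 to 0.660 in WT TAC libraries, without overlap. It was 0.304 to 0.569 in KO sham and 0.363 to 0.421 in WT sham libraries. That ratio was chosen after its values were seen and is given without a test.

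The make-up of each family can be read from the share of a gene in the family's sum. P4ha1 made up 48.2 ± 2.27% of the alpha subunit sum in KO TAC hearts and 50.5 ± 2.95% in WT TAC hearts, against 37.6 ± 4.23% in KO sham hearts and 37.1 ± 2.59% in WT sham hearts, with P4ha2 making up nearly all of the rest. All TAC libraries lay above all sham libraries in that share, so after TAC the 2 main alpha subunits stood at nearly equal levels. Plod2 made up 19.5 ± 2.67% of the lysyl hydroxylase sum in KO TAC hearts, 15.2 ± 0.957% in WT TAC hearts, 14.2 ± 0.872% in KO sham hearts and 13.9 ± 2.05% in WT sham hearts. Lox made up 12.2 ± 5.09% of the lysyl oxidase sum in KO TAC hearts, 5.95 ± 1.07% in WT TAC hearts, 6.82 ± 0.848% in KO sham hearts and 4.02 ± 0.496% in WT sham hearts. Loxl2 made up 20.6 ± 2.66% in KO TAC hearts, 22.6 ± 1.90% in WT TAC hearts, 16.8 ± 0.592% in KO sham hearts and 18.2 ± 2.24% in WT sham hearts. These shares were not tested.

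**Figure D3:**
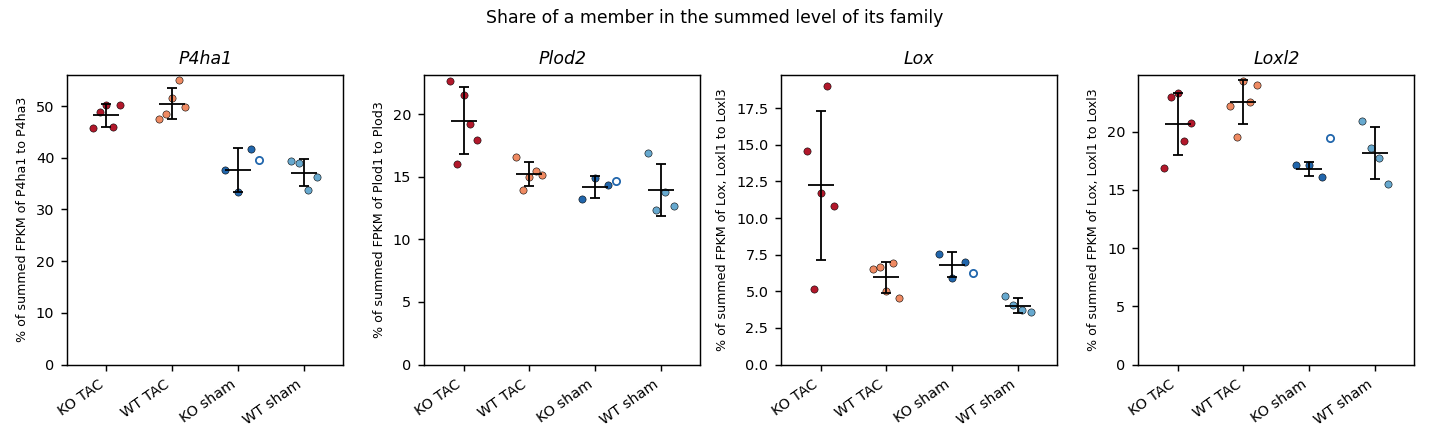
Share of P4ha1, Plod2, Lox and Loxl2 in the summed FPKM of their family, in percent (vertical axes, each starting at 0), by group, with 1 point per library and mean ± SD. The hollow point is KO sham replicate 2, outside the mean. The share of P4ha1 was 48.2% in KO TAC and 50.5% in WT TAC hearts, against 37.6% in KO sham and 37.1% in WT sham hearts.

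The substrate of these enzymes rose with TAC too. Col1a1, the main chain of collagen I, averaged 42.5 ± 14.5 FPKM in KO TAC hearts, 21.5 ± 7.71 FPKM in WT TAC hearts, 10.1 ± 0.104 FPKM in KO sham hearts and 7.07 ± 0.476 FPKM in WT sham hearts. It rose by 1.91 ± 0.25 in KO hearts and by 1.42 ± 0.23 in WT hearts, and after TAC was higher in KO hearts by 0.95 ± 0.22 (adjusted p = 0.0136, limma). Col3a1, the chain of collagen III, was higher in KO hearts by 0.94 (adjusted p = 0.0174, limma), a call lost without KO TAC replicate 1 (0.87, adjusted p = 0.0521). Of 18 collagen chain genes 16 were tested and all 16 rose in both genotypes, with a median change of 1.28 in KO hearts and 0.96 in WT hearts. After TAC 10 of the 16 were higher in KO than in WT hearts, against 6.53% of all genes tested. Of all genes tested, 21.1% rose with TAC in KO hearts and 10.7% in WT hearts. Col4a1 and Col4a2, the basement membrane chains, had the smallest adjusted p-values among them, with changes of 1.29 ± 0.07 and 1.23 ± 0.08 in KO hearts and 1.15 ± 0.07 and 1.05 ± 0.07 in WT hearts.

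Set against the summed level of Col1a1, Col1a2 and Col3a1, the lysyl hydroxylases, P4ha2, Loxl1 and Loxl3 had lower means after TAC in both genotypes. Lox and Loxl2 had higher means after TAC in both. The 3 collagens summed to 195 ± 56.6 FPKM in KO TAC hearts and 108 ± 39.3 FPKM in WT TAC hearts, against 51.5 ± 2.72 FPKM in KO sham hearts and 39.4 ± 4.35 FPKM in WT sham hearts. Per 1000 FPKM of that sum, Plod1 stood at 235 ± 72.1 FPKM in KO TAC hearts, 479 ± 176 FPKM in WT TAC hearts, 687 ± 78.6 FPKM in KO sham hearts and 899 ± 94.0 FPKM in WT sham hearts. P4ha1 stood at 134 ± 41.9 FPKM in KO TAC hearts, 291 ± 91.4 FPKM in WT TAC hearts, 254 ± 113 FPKM in KO sham hearts and 286 ± 49.7 FPKM in WT sham hearts. For P4ha1 this ratio ran from 87.9 to 179 FPKM in KO TAC libraries and from 193 to 398 FPKM in WT TAC libraries, without overlap. WT TAC overlapped with WT sham, and KO TAC with KO sham. P4ha2 did not overlap between genotypes after TAC in this ratio either. The level of P4ha1 alone did overlap there, while the mean collagen sum was higher in KO TAC than in WT TAC hearts. How many of all genes separate in such a ratio was not counted. Loxl1 stood at 137 ± 16.97 FPKM in KO TAC hearts, 168 ± 26.6 FPKM in WT TAC hearts, 184 ± 13.8 FPKM in KO sham hearts and 197 ± 26.5 FPKM in WT sham hearts. Loxl3 stood at 28.7 ± 5.68 FPKM in KO TAC hearts and 28.6 ± 5.77 FPKM in WT TAC hearts. In sham it stood at 29.5 ± 6.61 FPKM in KO hearts and 41.7 ± 9.86 FPKM in WT hearts. Lox had its highest mean in KO TAC hearts, with 30.3 ± 12.2 FPKM in KO TAC hearts, 16.4 ± 4.18 FPKM in WT TAC hearts, 19.2 ± 4.15 FPKM in KO sham hearts and 12.4 ± 1.94 FPKM in WT sham hearts, although KO TAC replicate 2 was at 11.5 FPKM. These ratios are a description, without a test.

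**Figure D4:**
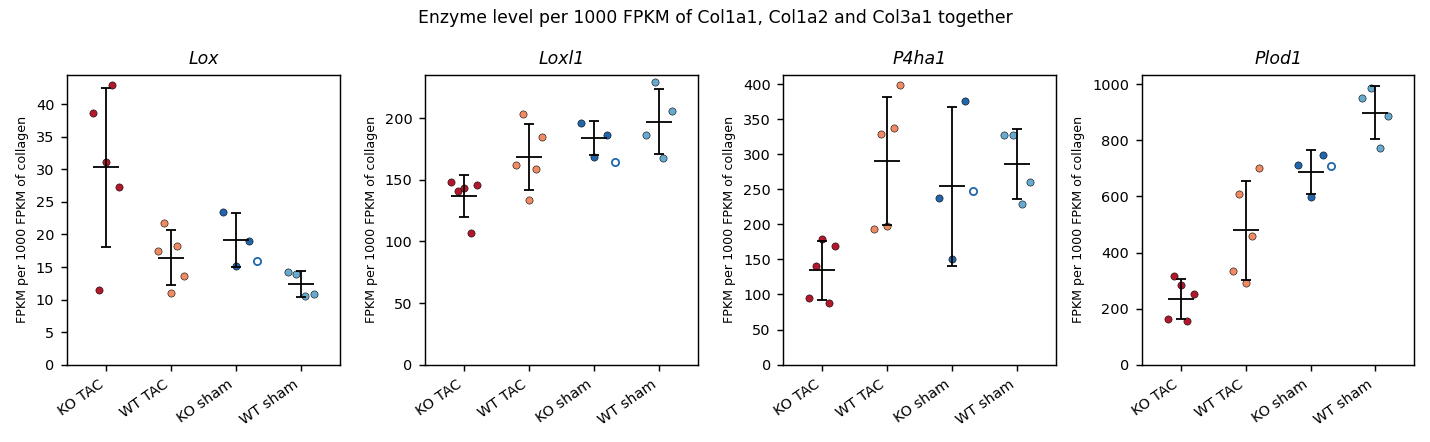
Level of Lox, Loxl1, P4ha1 and Plod1 per 1000 FPKM of Col1a1, Col1a2 and Col3a1 together (vertical axes, each starting at 0) by group, with 1 point per library and mean ± SD. The hollow point is KO sham replicate 2, outside the mean. Plod1 averaged 235 in KO TAC and 479 in WT TAC hearts, against 687 in KO sham and 899 in WT sham hearts.

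Among 14 partners that fold or modify collagen in the endoplasmic reticulum or belong to the lysyl oxidase family, 13 were tested, and 8 rose and 1 fell after TAC in KO hearts, while 2 rose and 1 fell in WT hearts. Their median change was 0.28 in KO hearts and 0.06 in WT hearts. Over all genes tested 21.1% rose and 17.7% fell in KO hearts, and 10.7% rose and 11.2% fell in WT hearts. P4hb, protein disulfide isomerase and the beta subunit that every P4ha subunit needs, averaged 96.2 ± 8.30 FPKM in KO TAC hearts, 77.5 ± 5.37 FPKM in WT TAC hearts, 66.7 ± 0.501 FPKM in KO sham hearts and 74.2 ± 1.88 FPKM in WT sham hearts. It rose by 0.52 ± 0.07 in KO hearts (adjusted p = 1.53e-05, limma), had a change of 0.06 ± 0.06 in WT hearts (adjusted p = 0.546) and was higher in KO hearts after TAC by 0.31 ± 0.06 (adjusted p = 0.00445). Its interaction of 0.46 ± 0.09 was called (adjusted p = 0.0339, limma), and it kept that call only where the library left out was WT TAC replicate 1, 2 or 3 or KO TAC replicate 2 or 5. Without any of the other 12 it was 0.44 to 0.47, with adjusted p = 0.0512 to 0.0693.

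P3h2, a prolyl 3-hydroxylase that acts on basement membrane collagen, rose by 1.10 ± 0.10 in KO hearts (adjusted p = 3.27e-07, limma) and by 0.52 ± 0.09 in WT hearts (adjusted p = 0.000553). Its interaction of 0.58 ± 0.13 was called (adjusted p = 0.0432, limma), and it kept that call only without WT TAC replicate 1, WT TAC replicate 3 or KO TAC replicate 2. Without any of the other 14 it was 0.50 to 0.61, with adjusted p = 0.0501 to 0.0953. Serpinh1, the collagen chaperone HSP47, averaged 96.3 ± 10.9 FPKM in KO TAC hearts and 117 ± 17.6 FPKM in WT TAC hearts, against 75.7 ± 12.8 FPKM in KO sham hearts and 61.5 ± 5.03 FPKM in WT sham hearts. It rose by 0.35 ± 0.12 in KO hearts (adjusted p = 0.0316, limma) and by 0.91 ± 0.11 in WT hearts (adjusted p = 4.55e-05, limma), the KO call being lost without KO sham replicate 1 or 3 or KO TAC replicate 4 or 5, at 0.25 to 0.32 with adjusted p = 0.0650 to 0.173. P3h4, which forms a complex with lysyl hydroxylase 1, was the gene that fell, by 1.13 ± 0.12 in KO hearts (adjusted p = 1.68e-06, limma) and by 0.56 ± 0.11 in WT hearts (adjusted p = 0.00164). Loxl4, the remaining lysyl oxidase, missed the limit of 1 FPKM, with 0.548 ± 0.178 FPKM in KO TAC hearts, 0.378 ± 0.0974 FPKM in WT TAC hearts, 0.249 ± 0.0586 FPKM in KO sham hearts and 0.231 ± 0.0744 FPKM in WT sham hearts.

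Of 8 genes for the proteases that trim procollagen ends and their enhancers, 4 were tested and all 4 rose in both genotypes. Of all genes tested, 21.1% rose in KO hearts and 10.7% in WT hearts. Adamts2, which removes the amino-terminal propeptide, rose by 1.36 ± 0.17 in KO hearts and by 0.84 ± 0.16 in WT hearts, and Pcolce, an enhancer of the carboxy-terminal protease, by 1.08 ± 0.14 in KO hearts and 0.78 ± 0.13 in WT hearts. Of 10 genes of elastic fibres and proteins that bind lysyl oxidases, all 10 rose in KO hearts, with a median of 1.58, and 9 rose in WT hearts, with a median of 0.75. After TAC 6 were higher in KO than in WT hearts, against 6.53% of all genes tested. Mfap4, a microfibril protein, rose by 3.27 ± 0.31 in KO hearts and by 1.94 ± 0.28 in WT hearts, and Fbn1, fibrillin 1, by 1.80 in KO hearts and 1.14 in WT hearts. Postn, periostin, a matricellular protein of activated fibroblasts, rose by 4.24 ± 0.44 in KO hearts and by 2.55 ± 0.41 in WT hearts. All of these had adjusted p under 0.05 (limma).

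Genes that supply the cofactors had small median changes. Of 6 genes for copper and ascorbate transport 4 were tested, and 2 rose in each genotype, with medians of 0.19 in KO hearts and 0.21 in WT hearts. Of all genes tested, 21.1% rose in KO hearts and 10.7% in WT hearts. Atox1, a copper chaperone, rose by 0.37 in KO hearts, a call lost without KO sham replicate 1 (0.25, adjusted p = 0.0685, limma), and Slc31a1, the copper importer, rose by 0.29 in WT hearts. Atp7a, a copper pump of the secretory pathway, rose by 0.26 in KO hearts, a call kept only without WT sham replicate 3 or 4, WT TAC replicate 2, 3 or 4 or KO TAC replicate 2 or 5 and otherwise at adjusted p = 0.0502 to 0.183. It rose by 0.29 in WT hearts, a call lost without WT sham replicate 1, 2 or 4 or WT TAC replicate 1 or 4 (adjusted p = 0.0560 to 0.0969). Of 16 genes of the hypoxia response, 8 rose and 3 fell in KO hearts, with a median of 0.31, and 4 rose and 2 fell in WT hearts, with a median of 0.08. Over all genes tested 21.1% rose and 17.7% fell in KO hearts, and 10.7% rose and 11.2% fell in WT hearts. Bnip3, a mitophagy receptor, rose by 0.58 and Egln1, an oxygen sensor, fell by 0.34 in KO hearts. Vegfa, the angiogenic growth factor, rose by 0.58 and Mxi1, a MYC antagonist, fell by 0.23 in WT hearts. Of 10 TGF-beta targets and ligands all 10 rose in KO hearts, with a median of 1.07, and 8 rose in WT hearts, with a median of 0.68. After TAC Ccn2, Ltbp2, Pmepa1, Tgfb2 and Tgfb3 were higher in KO than in WT hearts, as were 6.53% of all genes tested. That difference between genotypes was called for Pmepa1 only without WT TAC replicate 2, KO sham replicate 3 or 4 or KO TAC replicate 2, and otherwise had adjusted p = 0.0517 to 0.129 (limma). For Tgfb3 it was called only without WT TAC replicate 3 or KO TAC replicate 2 or 5, and otherwise had adjusted p = 0.0514 to 0.135. Pmepa1, a feedback inhibitor of the pathway, rose by 1.07 in KO hearts and by 0.90 in WT hearts.

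Markers of heart cell types moved with surgery, and their part in these results was not tested. Over all genes tested 21.1% rose and 17.7% fell with TAC in KO hearts, and 10.7% rose and 11.2% fell in WT hearts. After TAC 6.53% were higher and 4.78% lower in KO than in WT hearts. The 7 markers of activated fibroblasts summed to 42.6 to 135 FPKM in KO TAC libraries and 24.3 to 80.4 FPKM in WT TAC libraries, against 9.09 to 9.61 FPKM in KO sham and 9.28 to 12.6 FPKM in WT sham libraries. Of them 5 rose in KO hearts and 3 in WT hearts, and none was called between genotypes after TAC. Their sum was highest in KO TAC replicates 1 and 4, at 135 and 124 FPKM, the libraries with the highest Lox and Loxl3, and lowest among TAC libraries in WT TAC replicate 5 at 24.3 FPKM and, within KO TAC, in replicate 2 at 42.6 FPKM. The 7 markers of resident fibroblasts summed to 728 to 915 FPKM in KO TAC, 758 to 1075 FPKM in WT TAC, 685 to 775 FPKM in KO sham and 676 to 888 FPKM in WT sham libraries. Of them Pdgfra, Dcn, Lum and Cd34 rose in KO hearts, Cd34 rose and Tcf21 fell in WT hearts, Gsn was lower in KO than in WT hearts after TAC, and Cd34 was lower in KO hearts in sham. Of 7 cardiomyocyte markers 6 fell and 1 rose in KO hearts and 4 fell and 1 rose in WT hearts, and their sum was 25773 to 28809 FPKM in KO TAC, 28894 to 30981 FPKM in WT TAC, 33581 to 36688 FPKM in KO sham and 33227 to 34567 FPKM in WT sham libraries. After TAC the cardiomyocyte markers Myh6, Tnni3 and Pln were lower in KO than in WT hearts. Of 6 macrophage markers Adgre1 and Lyz2 rose in KO hearts and none in WT hearts, and of 6 endothelial markers Pecam1 rose in KO hearts. None of the 6 smooth muscle and pericyte markers or 5 erythroid markers was called. Of 5 atrial cardiomyocyte markers 2 were tested. Stard10 fell in both genotypes, by 1.74 ± 0.15 in KO hearts and by 0.69 ± 0.13 in WT hearts, and was lower in KO than in WT hearts after TAC (-0.72 ± 0.13), with a called interaction (-1.05 ± 0.20, adjusted p = 0.0264, limma), while Myl4 fell in WT hearts by 0.68 ± 0.19. The atrial markers summed to 3.95 to 6.56 FPKM in KO TAC and 7.06 to 9.18 FPKM in WT TAC libraries, against 14.5 to 17.9 FPKM in KO sham and 10.7 to 16.2 FPKM in WT sham libraries. Stard10 made up most of that sum, averaging 4.11 FPKM in KO TAC, 7.29 in WT TAC, 15.8 in KO sham and 12.4 in WT sham hearts. Myl4 averaged 0.826 FPKM in KO TAC and 0.711 FPKM in KO sham hearts. Myl7, Sln and Bmp10 were listed at 0 in most libraries, so the sum mainly reads 1 gene. Of 4 lymphocyte markers 1 was tested and was not called, and adipocyte markers summed to at most 0.446 FPKM in any library. The marker genes named here were chosen after their values were seen.

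The genes whose levels followed each enzyme most closely were found by the root mean square difference of centred log2(FPKM + 1) over the 17 libraries, among 11297 candidates, where 0 means the same pattern. For Lox they were Sfrp2, a secreted Wnt modulator, at 0.26 and Eln, elastin, at 0.29. For Loxl1 they were Adamts2 at 0.14 and Igfbp7 at 0.14, and for Loxl2 they were Fbn1 at 0.15 and Sparc, a collagen-binding matrix protein, at 0.16. For Loxl3 they were Star and Dio2, both at 0.18. For Plod1 the closest was Fyn, a tyrosine kinase, at 0.09. For Plod2 they were Synpo at 0.11 and Actn1 at 0.12, and for Plod3 Aoc3 and Tnfrsf1a, both at 0.09. P4ha2 was followed by Mypn and Alpl, both at 0.12.

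P4ha1 was followed by a pair of chaperone genes of the cytosol, Hsp90aa1 at 0.18 and Hspb1 at 0.21. Hsp90aa1 averaged 73.2 ± 9.69 FPKM in KO TAC hearts and 110 ± 23.2 FPKM in WT TAC hearts, against 43.8 ± 13.97 FPKM in KO sham hearts and 40.3 ± 7.94 FPKM in WT sham hearts. Among the KO sham libraries replicate 4 was the highest for Hsp90aa1 at 58.5 FPKM, as it was for P4ha1 at 19.4 FPKM, P4ha2 at 26.9 FPKM and Serpinh1 at 90.1 FPKM. Without that library the genotype difference of P4ha1 in sham was -0.18, against 0.13 with it, and that of P4ha2 was -0.09, against 0.11 with it, and neither was called.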

How the data were processed

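Heart RNA was prepared from total RNA with a mRNA-seq kit, per the labels' protocols. The authors deposited 1 table with 1 column per library. Its unit is not named, and it was taken as FPKM because the deposited values multiplied by transcript length gave a nearly constant total per library. RPKM cannot be told apart from it. The genome build is mm10, per the submitters' processing notes, and the sources used here name no aligner or counter. Low values were not whole multiples of 1 read, so depth is unknown and no counting interval is given.

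Groups were taken from the sample labels. A mean per group was fitted to log2(FPKM + 1) with limma 3.58.1 in R 4.3.3 (trend and robust moderation) on 17 libraries and 11937 genes with at least 1 FPKM in at least 3 libraries. Benjamini-Hochberg adjustment ran over all genes tested, with a threshold of 0.05. P4ha3 and Kcp had 2-sided exact permutation tests. Comparisons within a surgery or genotype share libraries and are not independent. The fit was tested on simulated data. Alternatives were a pseudocount of 0.1, no filter, median-ratio scaling, all 18 libraries, a replicate block, a library set term, only the 2 groups compared, WT TAC replicate 5 and KO TAC replicate 2 left out together, and each library left out in turn.

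All 10 enzymes are named. From each gene list up to 2 genes with the smallest adjusted p per genotype after TAC were named, with a few fixed ones (Col1a1, Col3a1, P4hb, Serpinh1, Loxl4, Postn), and for each enzyme the 2 genes most alike, gene models and pseudogenes left out. One gene that this rule selects is not reported here. Members, lists and tests were chosen with earlier results of these data known. Positions and promoters are from RefSeq for GRCm38.p6, to whose symbols all 34714 gene names matched. Python 3.11.15 with pandas 2.3.3 and numpy 2.4.6 was used for tables, and matplotlib 3.10.9 for figures.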

Additional observations from a re-analysis of the deposited data

Results flagged for a closer look

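The level of Lox in WT TAC replicate 5 was 0.897 FPKM, far below the other 4 WT TAC libraries, which lay between 1.80 and 2.09 FPKM. The gap took up a larger part of the group's range than Dixon's test allows for 5 values at 95%. It was the only such value in 30 groups examined, and chance alone gives about 1 in 20. That library also had the lowest Loxl1, Loxl2 and Loxl3 levels and the lowest sum of activated fibroblast markers of the WT TAC group.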

How the results depend on the processing

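Depth is unknown, so genes below 1 FPKM such as P4ha3 carry the least weight, and each group holds at most 5 libraries. Of the 9 tested enzymes, the count called between genotypes after TAC was 5 as tested, 2 with the library set as a term, 3 in a fit of the 2 groups alone, and 2 to 5 with 1 library left out. The interaction count was 0 to 1 with 1 library left out, and the counts after TAC were 7 to 9 in each genotype. Over all genes, the count between genotypes in sham was 151 as tested, 227 with all 18 libraries, 12 with the set term, and 50 to 169 with 1 library left out, lowest without KO sham replicate 3. After TAC it was 1350 as tested, 243 with the set term, 814 in the 2 groups alone, and 663 to 1833 with 1 library left out, lowest without KO TAC replicate 1. The interaction count was 111 as tested, 16 without the filter, 199 with median-ratio scaling, 300 with all 18 libraries, 17 with the set term, 460 without WT TAC replicate 5 and KO TAC replicate 2 together, and 7 to 597 with 1 library left out, lowest without KO sham replicate 1 and highest without KO TAC replicate 2. The cause of these shifts was not tested. Between genotypes the set term rests on WT TAC replicate 5, the only WT library of its set. Counts between genotypes with that term are therefore not read as a test.

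The main fit did not pair libraries by replicate number. Deviations of same-numbered libraries from their group means had correlations of -0.24 to 0.16. The labels do not say whether such libraries belong together, and with so few libraries per group these correlations cannot settle it. With the replicate block, 345 genes were called in the interaction, and the enzymes called were 9 after TAC in KO hearts, 8 after TAC in WT hearts, 5 between genotypes after TAC, 0 between genotypes in sham and 0 in the interaction.

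Signs turned round only for differences that were not called, all but 1 of them KO against WT in sham. For Loxl3 the difference was -0.07 as tested, 0.44 with the set term, and -0.15 to 0.058 with 1 library left out. For Plod1 it was close to 0 as tested, 0.0091 with median-ratio scaling, 0.021 with all 18 libraries, 0.035 with the replicate block, 0.0050 with the set term, and -0.067 to 0.058 with 1 library left out. With 1 library left out it was -0.18 to 0.40 for P4ha1 and -0.089 to 0.26 for P4ha2. For Postn it was -0.36 as tested and 1.32 with the set term. For P4ha3 it was -0.0053 with a pseudocount of 0.1, -0.0062 with all 18 libraries, and -0.030 to 0.017 with 1 library left out. The change of P4ha3 after TAC in WT hearts was -0.0083 to 0.051 with 1 library left out.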
